A study of Mus musculus with 8 samples.

Results

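The 9 genes described here, *Trpv5*, *Trpv6*, *Calb1*, *S100g*, *Pvalb*, *Slc8a1*, *Atp2b1*, *Atp2b4* and *Casr*, encode the machinery that carries calcium through the cells of the distal kidney tubule, together with the receptor that senses calcium outside the cell. They were chosen by name from the 55401 genes listed for each kidney, and all 9 had enough reads to be tested. RNA-Seq was performed on whole kidneys of 8 mice. The 4 controls had the genotype SIK1f/f;SIK2f/f,SIK3f/f, meaning that the genes of the salt-inducible kinases (SIKs) *Sik1*, *Sik2* and *Sik3* carried loxP sites and that no Cre recombinase was present. The 4 SIK mutants carried Six2-Cre in addition to those alleles. The study's own text gives the mutants 1 floxed and 1 intact *Sik1* allele, which differs from the genotype in the labels. Six2-Cre recombines in nephron progenitors and the tubule cells and podocytes that arise from them, so mutant kidneys still hold vessels, stroma, blood cells and collecting duct with intact alleles. No age, sex, litter or treatment is given in the labels, and nothing there says how the mice of a group were related.

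Transcellular calcium reabsorption takes place in the late distal convoluted tubule and the connecting tubule. Calcium enters from the urine side through epithelial TRPV channels, is carried across the cell bound to calbindins, and leaves on the blood side through a sodium-calcium exchanger and plasma membrane calcium ATPases. Parathyroid hormone (PTH) and 1,25-vitamin D are the classical hormonal stimuli of this route, and PTH signaling inhibits SIKs. The comparison of the 2 genotypes asks how loss of SIKs in the nephron changes the kidney transcriptome, here at the genes of that route.

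Depth was 10179648 to 10925100 expected counts per kidney, and 3 counts, taken as the smallest detectable level, equalled 0.263 to 0.304 CPM, the unit used here for counts on one shared library scale. The targeted genes were measured over the whole gene. *Sik3* measured 62.9 ± 3.79 CPM in controls and 39.5 ± 4.10 CPM in mutants (SD, n = 4 per group; edgeR FDR 0.0697), *Sik2* measured 9.14 ± 0.841 and 6.72 ± 2.07 CPM, and *Sik1* 40.8 ± 2.84 and 50.6 ± 4.85 CPM. Across all 14326 tested genes, edgeR called 0% at a false discovery rate (FDR) under 0.05, while 6.36% had an unadjusted p under 0.05, and DESeq2 called 0.387% of the 18344 genes to which it gave an FDR. Controls 3 and 4 stood apart from the other kidneys. They carried *Xist* RNA at 260.5 and 297.8 CPM and almost no Y-linked reads, with a summed level of 0 and 0.175 CPM over 4 Y-linked genes against 76.8 to 94.9 CPM in the 4 mutants and 81.0 and 78.0 CPM in controls 1 and 2. Fitted values of the 9 genes and of many of the other genes and lists named below are therefore also given for the 6 kidneys with Y-linked reads.

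No gene of the calcium route passed an FDR under 0.05. In the 8 kidneys, 6 of the 9 genes had a higher and 3 a lower fitted level in mutants, beside 49.2% of all tested genes with a higher level, and the median log2 fold change was 0.13, beside -0.0038 over all tested genes. *Trpv5* was the only one of the 9 with an unadjusted p under 0.05, and 2.76% of all tested genes had such a p and a higher level in mutants. The CPM ranges of the 2 groups overlapped for all 9, and 4.03% of all tested genes had ranges that did not overlap. Whole-kidney RNA cannot tell fewer cells of a type from less RNA per cell, which holds for each of the genes below.

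**Figure D1:**
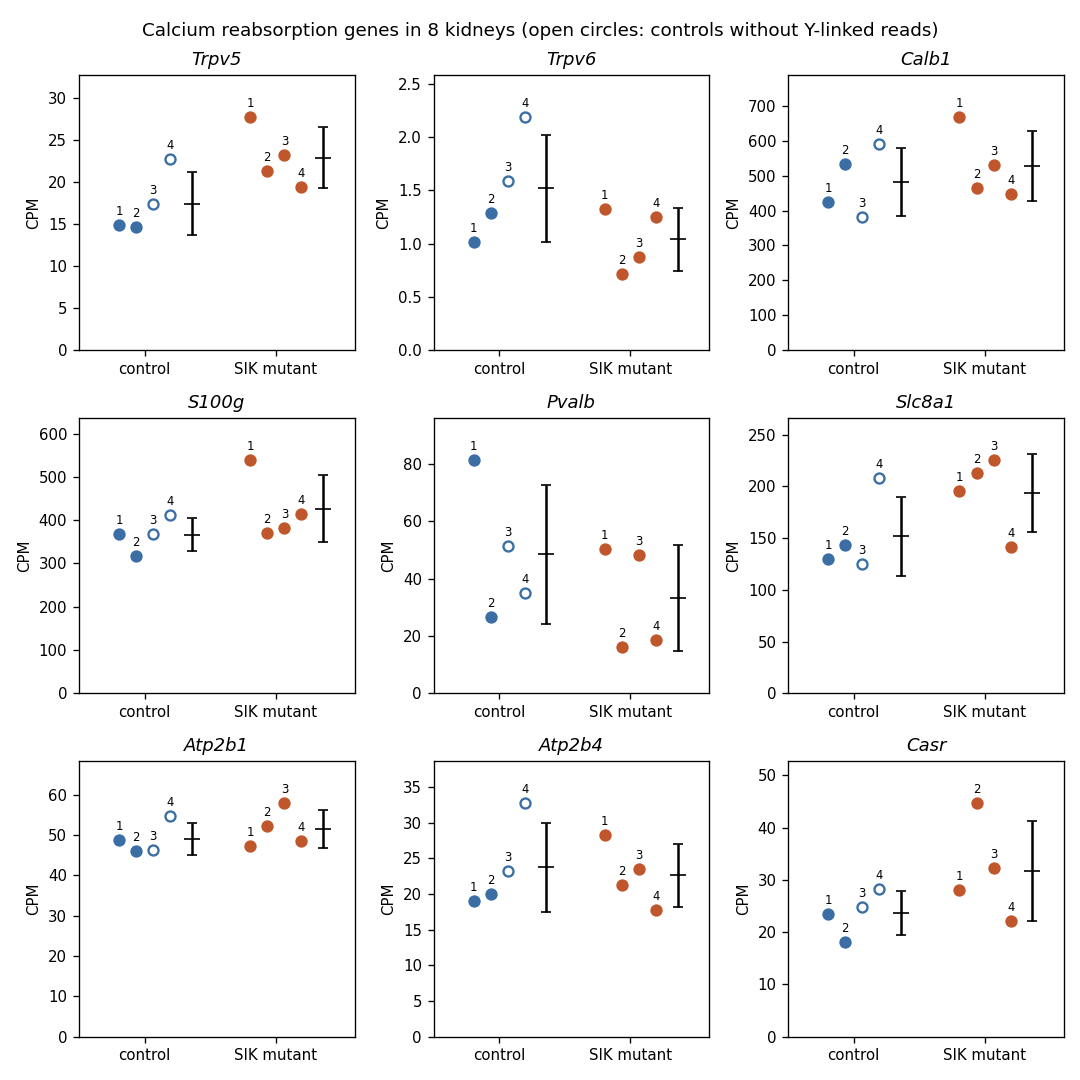
CPM of the 9 calcium reabsorption genes in each kidney, with controls in blue, SIK mutants in orange, replicate numbers above the points and the mean ± SD of each group beside them. Open circles are the controls without Y-linked reads. The 4 mutants lie above both controls with Y-linked reads for *Trpv5* and *S100g*, as for 10.1% of all tested genes, and the groups overlap for every gene once controls 3 and 4 are counted.

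The entry channels were described first. *Trpv5*, which encodes the main apical calcium channel of this segment, lies on the minus strand of chromosome 6 (GRCm38, bases 41652173 to 41680769). *Trpv6*, its close relative better known from the intestine, lies next to it on the same strand (41620624 to 41636405), with 15767 bases between the 2 genes. The RT-qPCR primers of the study for *Trpv5* are shown because they fix which stretch of the transcript that method reads. The study used RT-qPCR on kidneys of its Six2-Cre SIK mutants and reports changes in *Trpv5* and *Calb1* expression. The forward primer falls in exon 3 (chr6:41675931-41675951) and the reverse primer in exon 4 (chr6:41675285-41675305) of *Trpv5*-201, both in coding sequence. The pair matched both annotated *Trpv5* transcripts and no other gene, with a product of 179 bases.
*Trpv5* forward primer: ctccatacttggtcacagagt
*Trpv5* reverse primer: gtagatgaggttgtgtgaact

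*Trpv5* measured 14.9, 14.6, 17.35 and 22.7 CPM in controls 1 to 4 and 27.7, 21.3, 23.15 and 19.3 CPM in mutants 1 to 4. All 4 mutants exceeded the control mean, as in 12.2% of all tested genes, but control 4 lay above 2 of them. The group levels were 17.4 ± 3.73 CPM in controls and 22.9 ± 3.58 CPM in mutants (SD, n = 4 per group). The fitted log2 fold change was 0.39 (SE 0.165, 95% interval 0.024 to 0.763; edgeR unadjusted p = 0.039, FDR 0.768), and the two-sided exact permutation test of CPM gave p = 0.0857, where 0.0286 is the smallest p that 4 against 4 allows. Leaving out single kidneys moved the log2 fold change between 0.289 (without mutant 1) and 0.548 (without control 4), and the unadjusted p exceeded 0.05 without control 1 (0.0939), control 2 (0.10), control 3 (0.0683), mutant 1 (0.119) or mutant 3 (0.0697).

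*Trpv6* was close to the limit of detection, with 10, 13, 18 and 25 counts in controls 1 to 4 and 15, 8, 9 and 13 counts in mutants 1 to 4. Its level was 1.52 ± 0.504 CPM in controls and 1.04 ± 0.294 CPM in mutants, and all 4 mutants lay below the control mean. The log2 fold change was -0.55 (SE 0.329, 95% interval -1.288 to 0.188; unadjusted p = 0.127, FDR 0.823), and the interval runs from a level under 0.5 of that in controls to a slightly higher one. In controls 3 and 4 *Trpv6* was higher than in controls 1 and 2. The log2 fold change in the 6 kidneys was -0.13 (SE 0.411, unadjusted p = 0.752).

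RefSeq promoter windows (GRCm38.p6) ran from 250 bases before to 50 bases after each start. They were read for 8 of the 9 genes, all except *Calb1*, and numbered 10 in all. Those of the 2 neighbouring channels are shown because the motif found lies in one of them and not in the other. The stretches printed run up to the first base before the RefSeq or GENCODE start, whichever lies further upstream. Both strands of the whole windows were searched for TGACGTCA (the full cAMP response element), TGACG (the core of that element, contained in it) and 2 forms of the vitamin D response element, direct repeats of AGGTCA or of GGTTCA with 3 bases between the repeats. Capitals mark a TGACG match, whose first base lies 69 bases upstream of the *Trpv6* start. The first sequence is chr6:41680770-41680973 and the second chr6:41636406-41636655, both of the minus strand.
*Trpv5* promoter: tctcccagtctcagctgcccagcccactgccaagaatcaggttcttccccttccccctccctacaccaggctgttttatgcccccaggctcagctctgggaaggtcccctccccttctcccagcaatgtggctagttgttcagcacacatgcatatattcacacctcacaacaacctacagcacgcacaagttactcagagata
*Trpv6* promoter: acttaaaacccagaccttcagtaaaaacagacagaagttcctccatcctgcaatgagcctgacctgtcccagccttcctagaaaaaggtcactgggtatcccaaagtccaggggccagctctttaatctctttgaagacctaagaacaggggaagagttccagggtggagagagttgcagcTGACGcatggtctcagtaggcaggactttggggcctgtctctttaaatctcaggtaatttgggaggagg

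TGACG was found in 3 of the 10 promoters, those of *Trpv6*, *Atp2b4* and *Atp2b1*, beside 20.8% of all 32851 windows of the same length. In *Atp2b4* and *Atp2b1* the match lies after the start, from positions 42 and 5 (the start being 0), and so in none of the bases upstream. None of the 10 held TGACGTCA, which 1.79% of all promoters held, and none held either vitamin D response element, each of which was found in 0.00609% of all promoters. A match, or its absence, describes the letters of this window only.

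The calcium-binding buffers were the most abundant of the 9 genes per transcript length. *Calb1* (chr4:15881264-15908064, plus strand) encodes calbindin-D28k, the cytosolic calcium carrier that marks the late distal convoluted and connecting tubules. *S100g* (chrX:162961992-162964599, minus strand) encodes calbindin-D9k, a smaller carrier of the same kind. *Pvalb* (chr15:78191114-78206400, minus strand) encodes parvalbumin, a calcium buffer of the early distal convoluted tubule that is also known from muscle and from neurons.

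*Calb1* measured 424, 535, 381 and 592 CPM in controls 1 to 4 and 669, 465, 532 and 448 CPM in mutants 1 to 4. Only mutant 1 lay above all controls. The group levels, 483 ± 97.3 and 528 ± 100.4 CPM, differed by less than the spread within either group (log2 fold change 0.13, SE 0.175, 95% interval -0.263 to 0.523; unadjusted p = 0.476, FDR 0.938). Without mutant 1 the log2 fold change was -0.004.

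*S100g* measured 369, 317, 369 and 411 CPM in controls 1 to 4 and 539, 370, 382 and 414 CPM in mutants 1 to 4. The 4 mutants all lay above the control mean, 2 of them above every control, and mutant 1 was the highest of all 8 kidneys. The log2 fold change of 0.22 (SE 0.14, 95% interval -0.097 to 0.532; unadjusted p = 0.153, FDR 0.846) became 0.084 without mutant 1. *S100g* overlaps *Ctps2* on the opposite strand, and the use of strand in counting is not given in the sources used here.

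*Pvalb* was the most variable of the 9, at 81.4, 26.5, 51.3 and 34.8 CPM in controls 1 to 4 and 50.4, 16.3, 48.1 and 18.5 CPM in mutants 1 to 4. Kidneys 1 and 3 were high and kidneys 2 and 4 were low in both genotypes. The coefficient of variation was 50.0% in controls and 55.3% in mutants. The log2 fold change of -0.54 (SE 0.442, 95% interval -1.532 to 0.452; unadjusted p = 0.251, FDR 0.893) was smaller than this spread. Without control 1 it was -0.173, and without mutant 1 it was -0.812. The skeletal muscle markers *Acta1*, *Ckm*, *Mylpf* and *Tnnt3* summed to 0.528 to 0.812 CPM in controls and 0.357 to 1.32 CPM in mutants. Most of that was *Mylpf*, read in every kidney at 0.528 to 0.812 CPM in controls and 0.268 to 0.962 CPM in mutants. *Acta1*, *Ckm* and *Tnnt3* had no reads in controls and at most 0.265 CPM in a mutant. The part of muscle in the *Pvalb* values was not tested.

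A measure of *Calb1* other than its read count did not overlap between the groups. RSEM writes for each gene a length that is the mean of its transcripts' lengths weighted by their abundance. GENCODE lists 3 *Calb1* transcripts, the coding *Calb1*-201 of 4222 bases and the retained-intron transcripts *Calb1*-202 and *Calb1*-203 of 701 and 736 bases. The deposited length was 3808, 4052, 3887 and 3719 bases in controls 1 to 4 and 3601, 3628, 3245 and 3710 bases in mutants 1 to 4. The 2 groups did not overlap (3866 ± 141 against 3546 ± 206 bases, SD, n = 4), although control 4 and mutant 4 were nearly equal. Among the 11862 tested genes whose length varied between kidneys, 3.08% had lengths that did not overlap between groups, and *Calb1* was the only such gene of the 9. This feature was singled out after its values were seen, and no test is attached to it.

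With the 3 annotated lengths, the coding transcript made up 88.1%, 95.1%, 90.4% and 85.6% of the *Calb1* TPM (RSEM's abundance per transcript length, on a common total in each kidney) in controls 1 to 4, and 82.2%, 83.0%, 72.0% and 85.3% in mutants 1 to 4. These shares assume that the remainder was *Calb1*-203. If it was *Calb1*-202, the nearest values became 85.7% in control 4 and 85.5% in mutant 4. The short transcripts carry few reads but, per length, add to the TPM of the gene. The ratio of mutant to control means was 1.09 for CPM, 1.16 for the TPM of the coding transcript and 1.3 for the TPM of the gene, and limma-trend on log2(TPM + 1) gave a *Calb1* difference of 0.37 (unadjusted p = 0.0983) where the count fit gave 0.13. RSEM's division of reads among transcripts has its own error, which the gene-level files do not give.

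The RT-qPCR primers of the study for *Calb1* are shown because they bear on which of these transcripts that method reads. The forward primer spans the junction of exons 1 and 2 and the reverse primer the junction of exons 2 and 3 of *Calb1*-201, with a product of 98 bases. Both primers also matched the retained-intron transcript *Calb1*-202 with the same product length, and neither matched *Calb1*-203 or another gene.
*Calb1* forward primer: gacggaagtggttacctgga
*Calb1* reverse primer: atttccggtgatagctccaa

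**Figure D2:**
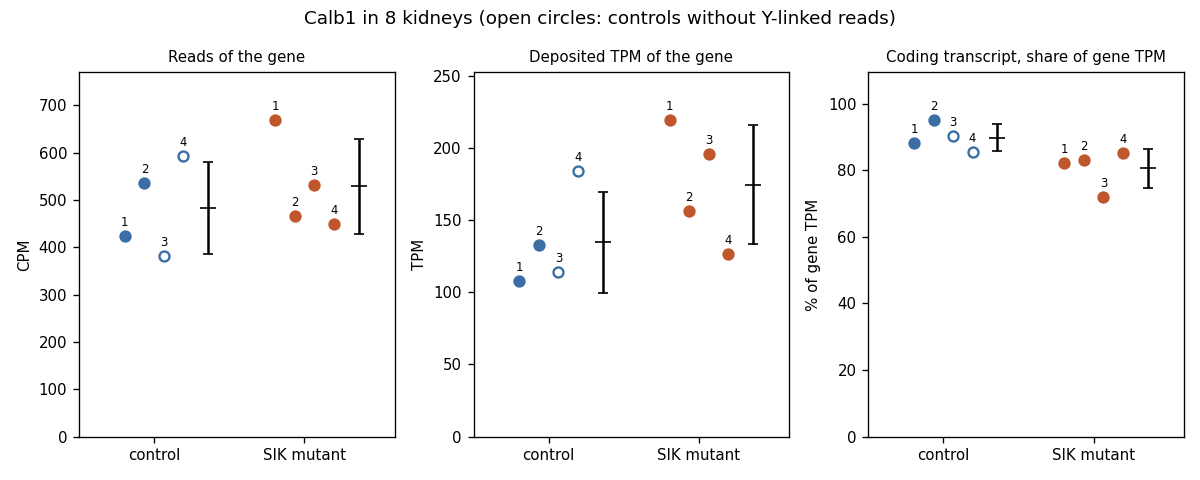
*Calb1* in each kidney as CPM of the gene (left), deposited TPM of the gene (middle) and percentage of that TPM assigned to the coding transcript *Calb1*-201, computed from the deposited gene length (right). Points are kidneys with replicate numbers, open circles are controls without Y-linked reads, and bars give the mean ± SD; the groups overlap in the left and middle panels, while in the right panel the controls span 85.6% to 95.1% and the mutants 72.0% to 85.3%.

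TPM also moved between kidneys for a gene of fixed length. The length of *Trpv5* was 3243 bases in all 8 kidneys, yet its TPM per CPM was 0.301, 0.315, 0.362 and 0.36 in controls 1 to 4 and 0.367, 0.379, 0.369 and 0.327 in mutants 1 to 4. Group differences in TPM therefore include a change of scale between kidneys, and CPM was used for the comparisons of genotype.

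The extrusion genes act on the blood side of the cell. *Slc8a1* (chr17:81373105-81738377, minus strand) encodes the sodium-calcium exchanger NCX1. *Atp2b1* (chr10:98914406-99026143, plus strand) and *Atp2b4* (chr1:133699457-133801041, minus strand) encode the plasma membrane calcium ATPases PMCA1 and PMCA4.

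*Slc8a1* measured 130.0, 144, 125 and 208 CPM in controls 1 to 4 and 195, 213, 225 and 141 CPM in mutants 1 to 4. Mutants 1, 2 and 3 and control 4 were high, and mutant 4 lay among the other controls. The levels were 152 ± 38.4 and 194 ± 37.2 CPM, with a log2 fold change of 0.35 (SE 0.193, 95% interval -0.081 to 0.786; unadjusted p = 0.0994, FDR 0.803). Without control 4 the log2 fold change was 0.544, and over all alternatives its FDR was 0.143 to 0.998. *Slc8a1* overlaps 1 coding gene on the opposite strand.

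*Atp2b1* was the steadiest of the 9, at 48.8, 46.1, 46.2 and 54.7 CPM in controls 1 to 4 and 47.4, 52.3, 57.9 and 48.5 CPM in mutants 1 to 4. Its coefficient of variation was 8.22% in controls and 9.22% in mutants. The log2 fold change was 0.073 (SE 0.0933, unadjusted p = 0.455, FDR 0.935), and its 95% interval of -0.137 to 0.282 was the narrowest of the 9.

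*Atp2b4* measured 19.0, 20.0, 23.25 and 32.7 CPM in controls 1 to 4 and 28.25, 21.2, 23.4 and 17.7 CPM in mutants 1 to 4. The highest kidney was control 4 and the lowest was mutant 4. The log2 fold change was -0.068 (SE 0.196, 95% interval -0.507 to 0.37; unadjusted p = 0.734, FDR 0.973). It turned to 0.127 without control 4, to 0.032 without mutant 4 and to 0.23 in the 6 kidneys, so no direction is given for this gene.

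*Casr* (chr16:36493696-36562141, minus strand) encodes the calcium-sensing receptor, which in the kidney is known best from the thick ascending limb, where it restrains calcium reabsorption between cells. It measured 23.55, 18.2, 24.8 and 28.3 CPM in controls 1 to 4 and 27.98, 44.7, 32.25 and 22.0 CPM in mutants 1 to 4. Mutant 2 was the highest kidney and mutant 4 lay within the control range. The levels were 23.7 ± 4.19 and 31.7 ± 9.59 CPM, with a log2 fold change of 0.42 (SE 0.211, 95% interval -0.054 to 0.894; unadjusted p = 0.0762, FDR 0.794), the largest positive value of the 9. Without mutant 2 it was 0.209. The summed markers of the thick ascending limb were also highest in mutant 2. Their sum was 4618 CPM there, against 3226 to 3660 CPM in the other mutants and 3209 to 4136 CPM in controls. Of that list *Umod* (3134 CPM) and *Slc12a1* (1074 CPM) were highest in mutant 2, *Cldn16* in mutant 1, and *Cldn10*, *Cldn19* and *Ppp1r1a* in a control. The part of these markers in the *Casr* difference was not tested.

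**Figure D3:**
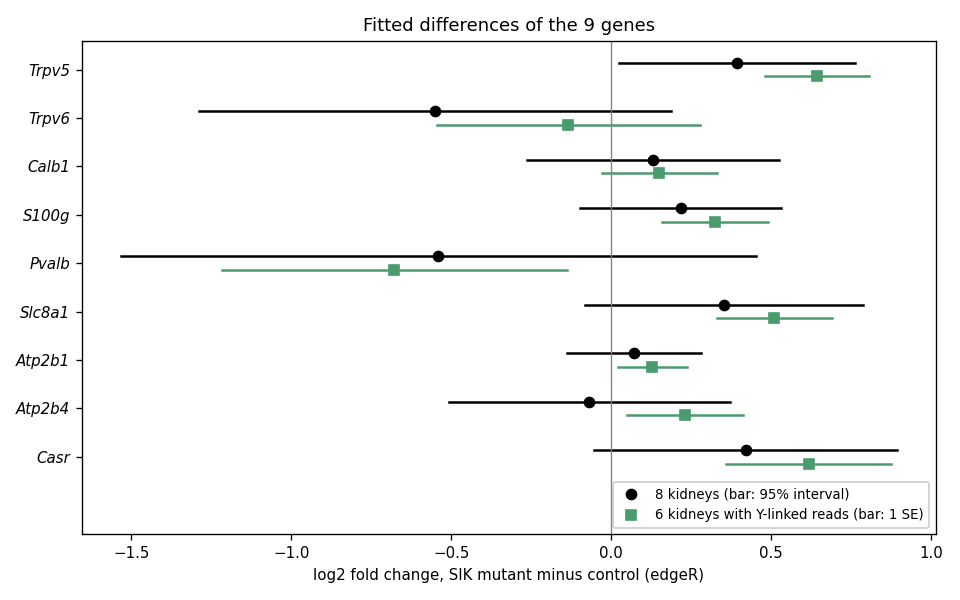
Fitted log2 fold changes of the 9 genes, SIK mutant minus control, in all 8 kidneys (black circles with 95% intervals) and in the 6 kidneys with Y-linked reads (green squares with 1 SE on each side). In the 8 kidneys only the interval of *Trpv5*, 0.024 to 0.763, leaves out 0, and *Atp2b4* changes sign between the fits, from -0.068 to 0.23.

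In the 6 kidneys with Y-linked reads (2 controls, 4 mutants), 3 of the 9 genes had an unadjusted p under 0.05, all higher in mutants, beside 6.4% of the 14719 tested genes in that direction and 11.1% in both directions. *Trpv5* had a log2 fold change of 0.64 (SE 0.162, unadjusted p = 0.00356, FDR 0.237), *Slc8a1* one of 0.51 (SE 0.179, unadjusted p = 0.0202, FDR 0.362) and *Casr* one of 0.62 (SE 0.258, unadjusted p = 0.0417, FDR 0.426). None passed an FDR under 0.05, while 0.143% of all tested genes did. In the same fit 7 of the 9 genes had a higher fitted level in mutants, beside 51.7% of all tested genes. All 4 mutants exceeded both remaining controls for *Trpv5* and, by as little as 370 against 369 CPM, for *S100g*, a separation that 10.1% of all tested genes shared. The log2 fold changes of *S100g*, *Calb1*, *Atp2b1* and *Pvalb* in this fit were 0.325 (SE 0.165), 0.151 (SE 0.18), 0.128 (SE 0.108) and -0.677 (SE 0.539), none with an unadjusted p under 0.05. For *Slc8a1* and *Casr*, mutant 4, at 141 and 22.0 CPM, lay below one of them.

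The 2 controls without Y-linked reads were also compared with the other 2. Both exceeded both other controls for 5 of the 9 (*Trpv5*, *Trpv6*, *S100g*, *Atp2b4* and *Casr*), beside 30% of all tested genes, and for *S100g* the nearest values were 368.9 and 368.8 CPM. Mean *Trpv5* was 14.8 CPM in controls 1 and 2, 20.0 CPM in controls 3 and 4 and 22.9 CPM in the 4 mutants, and mean *Casr* was 20.9, 26.6 and 31.7 CPM in the same order. No mutant lacked Y-linked reads, so genotype could not be compared among kidneys without them. The fit of all kidneys counts controls 3 and 4 as controls beside mutants that all had Y-linked reads. Only the fit restricted to kidneys with Y-linked reads leaves these 2 controls out.

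**Figure D4:**
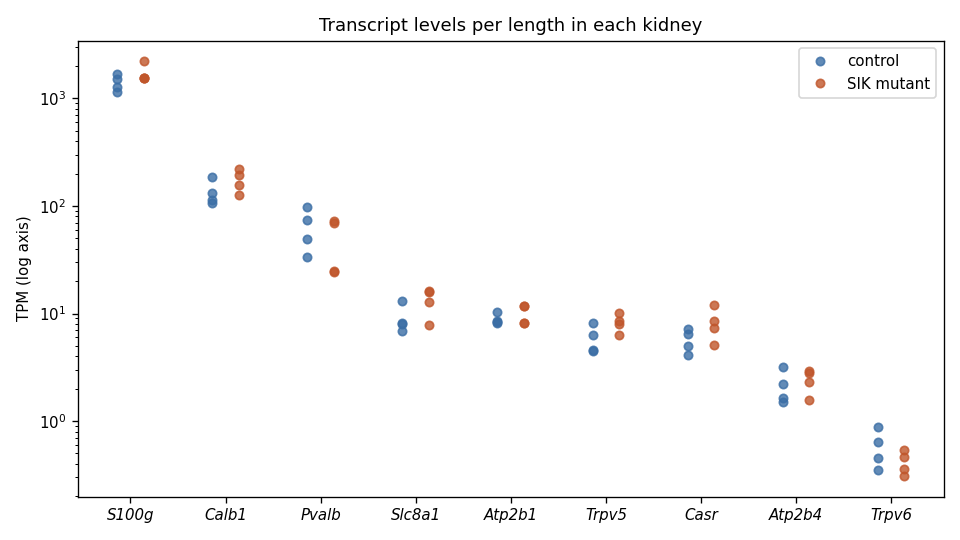
TPM of the 9 genes in each kidney on a log axis, controls in blue and SIK mutants in orange, ordered by the mean of the 8 kidneys. *S100g* spans 1154 to 2210 TPM and *Trpv6* 0.31 to 0.88 TPM, and *Slc8a1*, *Atp2b1*, *Trpv5* and *Casr* share one range.

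Levels could be compared between genes only per length. On the TPM scale *S100g* stood first with 1400 ± 233 in controls and 1720 ± 328 in mutants, followed by *Calb1* with 135 ± 34.9 and 175 ± 41.2 and by *Pvalb* with 63.6 ± 28.1 and 47.9 ± 27.1. The 8 kidneys of each of these 3 genes did not overlap those of the next. A second tier held *Slc8a1* (6.88 to 16.0 TPM over all kidneys), *Atp2b1* (8.09 to 11.8 TPM), *Trpv5* (4.49 to 10.2 TPM) and *Casr* (4.12 to 12.1 TPM), whose ranges overlapped. *Atp2b4* followed at 1.5 to 3.18 TPM and *Trpv6* at 0.31 to 0.88 TPM. The order of the tiers was the same in both genotypes. *Trpv5* thus stood at 5.89 ± 1.73 TPM in controls beside 0.58 ± 0.233 TPM of *Trpv6*.

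Across the 8 kidneys, the genes of the route varied together only in part. Over the 36 pairs of the 9 genes, Pearson's r of log2 CPM was positive for 28 pairs and had a median of 0.29. The highest values were 0.81 for *Trpv5* and *S100g*, 0.80 for *Trpv5* and *Slc8a1* and 0.79 for *Slc8a1* and *Atp2b1*. After the group means were removed, 30 pairs were positive with a median of 0.42, and the highest value was 0.99 for *Trpv5* and *Atp2b4*, a pair whose fitted differences between genotypes were 0.39 and -0.068. *Trpv5* and *Trpv6*, the neighbouring channels, had r = 0.03 over all kidneys and 0.67 within groups. These points share libraries, and the values are descriptions of 8 kidneys.

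The 3 genes most like *Trpv5* by r over the 8 kidneys were *Ptges* (0.967), *Nrep* (0.957) and *Phgdh* (0.953). Those most like *Calb1* were *Gm4924* (0.968), *Ccdc69* (0.96) and *Pigw* (0.934), each at 1.27 to 3.16 CPM on average. None belongs to the 9 genes. They are the extremes picked from 14326 tested genes over 8 kidneys, and no test is attached to them.

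Among 12 relatives of the 9 genes, 4 had enough reads to be tested, and none had an unadjusted p under 0.05 in the 8 kidneys. *Trpv4*, an osmosensitive channel of the same family, measured 155 ± 24.4 CPM in controls and 147 ± 10.4 CPM in mutants (log2 fold change -0.077, SE 0.12), and its log2 fold change in the 6 kidneys was -0.245 (SE 0.0974, unadjusted p = 0.034, FDR 0.407), the only one of the 4 there with an unadjusted p under 0.05. *Slc8a2* and *Slc8a3*, the other exchangers of the NCX family, stood below the floor on average, at 0.0968 and 0.0906 CPM in controls and 0.11 and 0.143 CPM in mutants. *Calb2*, *Atp2b3* and *Gprc6a* had no reads in any kidney.

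All 13 partners and regulators of TRPV5 were tested, and 7 had a higher and 6 a lower fitted level in mutants in both fits. The median log2 fold change was 0.022 in the 8 kidneys and 0.038 in the 6. None passed an FDR under 0.05. In the 8 kidneys *Klk1*, also on the connecting tubule list below, alone had an unadjusted p under 0.05. *Klk1*, which encodes the tissue kallikrein secreted by the connecting tubule, measured 2595, 3143, 2986 and 4005 CPM in controls 1 to 4 and 2283, 2021, 2007 and 2312 CPM in mutants 1 to 4, so the groups did not overlap. Its log2 fold change was -0.56 (SE 0.144, unadjusted p = 0.00318, FDR 0.474) and -0.40 in the 6 kidneys (unadjusted p = 0.0104, FDR 0.314). *S100a10* and *Anxa2*, whose products carry the channel to the membrane, had log2 fold changes of 0.034 and 0.216 in the 8 kidneys and 0.046 and 0.589 in the 6, the latter for *Anxa2* (unadjusted p = 0.000449, FDR 0.106). *Kl*, encoding klotho, measured 675 ± 111 and 626 ± 67.0 CPM, with a log2 fold change of -0.108 (SE 0.141) in the 8 and -0.221 (SE 0.116, unadjusted p = 0.0901) in the 6 kidneys.

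Among 5 hormonal genes, *Cyp27b1* and *Cyp24a1* had an unadjusted p under 0.05. *Cyp27b1*, which encodes the enzyme that makes 1,25-vitamin D, measured 13.6, 8.6, 5.37 and 15.8 CPM in controls 1 to 4 and 34.25, 16.9, 31.3 and 33.1 CPM in mutants 1 to 4. Every mutant exceeded every control (log2 fold change 1.41, SE 0.33, unadjusted p = 0.00176, FDR 0.429). *Cyp24a1*, which encodes the enzyme that degrades it and is itself a classical vitamin D target, measured 106.5, 44.95, 10.8 and 22.5 CPM in controls 1 to 4 and 138, 184, 356 and 513 CPM in mutants 1 to 4, again with no overlap (log2 fold change 2.69, SE 0.678, unadjusted p = 0.00287, FDR 0.457). In the 6 kidneys *Cyp27b1* had a log2 fold change of 1.391 (SE 0.312, unadjusted p = 0.00178, FDR 0.195), and that of *Cyp24a1* was 1.988 (SE 0.565, unadjusted p = 0.00707, FDR 0.287), with controls 3 and 4, its 2 lowest kidneys, left out. *Vdr*, the vitamin D receptor, had a log2 fold change of 0.087 (SE 0.153) in the 8 kidneys and -0.127 (SE 0.126) in the 6. *Pth1r*, the PTH receptor, had values of -0.094 (SE 0.155) and -0.333 (SE 0.0931, unadjusted p = 0.00642, FDR 0.284).

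Of 5 genes of CaSR signaling, 4 were tested and none had an unadjusted p under 0.05 in the 8 kidneys, while *Kcnj1*, the potassium channel ROMK of the thick ascending limb, had a log2 fold change of 0.239 in the 6 (SE 0.103, unadjusted p = 0.0465, FDR 0.438). Of 11 genes of intracellular calcium stores and calmodulin, 6 were higher and 5 lower in the 8 kidneys, and 7 higher and 4 lower in the 6. *Orai1*, which encodes the pore of store-operated calcium entry, was the one with an unadjusted p under 0.05 in the 8 kidneys. It measured 42.3, 41.2, 49.7 and 51.5 CPM in controls 1 to 4 and 32.5, 32.1, 35.2 and 35.8 CPM in mutants 1 to 4, without overlap (log2 fold change -0.45, SE 0.0967, unadjusted p = 0.00107, FDR 0.351), and its log2 fold change in the 6 kidneys was -0.29 (unadjusted p = 0.0138). *Itpr3*, an intracellular calcium release channel, had a log2 fold change of 0.689 in the 6 kidneys (SE 0.237, unadjusted p = 0.0185, FDR 0.36).

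Markers of the tubule segments were set beside these values. All 8 markers of the distal convoluted tubule were lower in mutants in the 8 kidneys, while 49.2% of all tested genes were higher. Their median log2 fold change was -0.321. Beside 6.36% of all tested genes, 4 of the 8 had an unadjusted p under 0.05. These were *Trpm6*, the apical magnesium channel (-0.72, unadjusted p = 0.00196), *Tmem52b* (-0.52, unadjusted p = 0.00444), *Emx1* (-0.447, unadjusted p = 0.00107) and *Klhl3* (-0.366, unadjusted p = 0.0476). None passed an FDR under 0.05. In the 6 kidneys 3 of the 8 were higher and 5 lower, with a median of -0.047, and the same 4 genes had log2 fold changes of -0.537, -0.304, -0.383 and -0.06, the first 3 with an unadjusted p under 0.05. *Slc12a3*, the sodium-chloride cotransporter that defines the segment, measured 561, 756, 748 and 1031 CPM in controls 1 to 4 and 676, 666, 730 and 484 CPM in mutants 1 to 4.

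Control 4 was the highest and mutant 4 the lowest kidney for *Slc12a3* and for *Atp2b4*. The same held for the summed distal convoluted tubule markers (1741 and 939 CPM), of which *Slc12a3* made up most. With the log2 CPM of *Slc12a3* as a covariate in edgeR, the log2 fold change of *Slc8a1* was 0.59 (SE 0.118, unadjusted p = 0.000842, FDR 0.287), that of *Trpv5* 0.58 (SE 0.134, unadjusted p = 0.00219, FDR 0.422) and that of *Casr* 0.56 (SE 0.212, unadjusted p = 0.0282, FDR 0.551). The fitted differences of *Trpv5* and *Slc8a1* were larger with this covariate, and remained above an FDR of 0.05. In the same fit 8.42% of all tested genes had an unadjusted p under 0.05. The covariate was chosen after the data were seen. *Slc12a3* itself had an edgeR log2 fold change of -0.276 (SE 0.192, unadjusted p = 0.182, FDR 0.863) in the 8 kidneys. In the 6 kidneys it was -0.033 (SE 0.183, unadjusted p = 0.859). The 95% interval in the 8 kidneys, -0.708 to 0.155, holds both 0 and a decrease, so a difference in *Slc12a3* between genotypes was neither shown nor excluded.

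**Figure D5:**
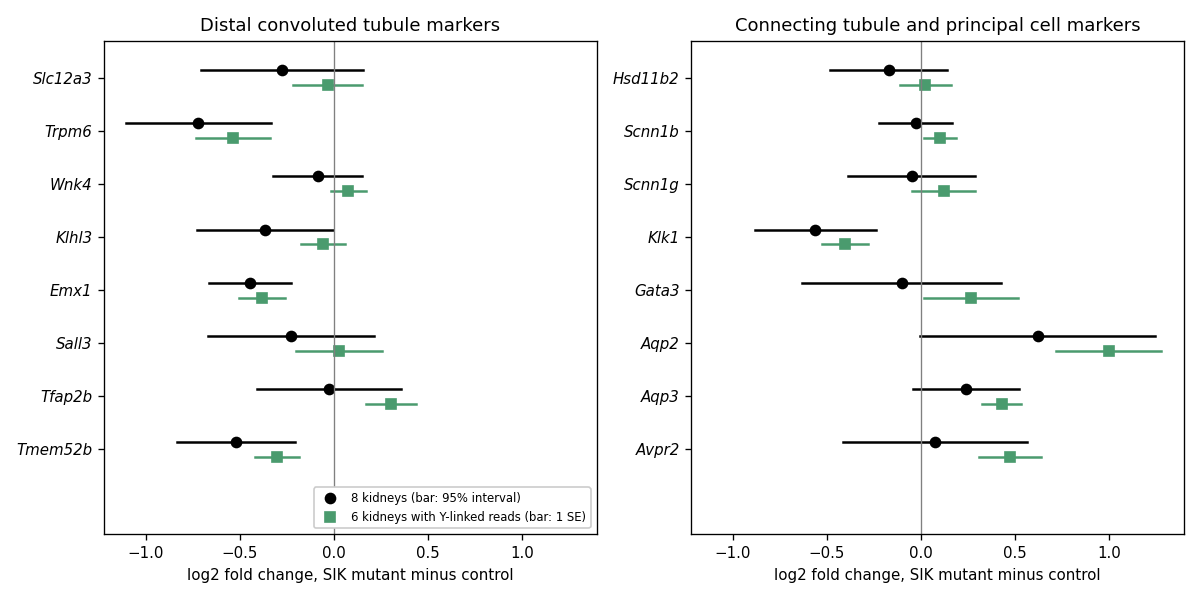
Fitted log2 fold changes, SIK mutant minus control, of 8 markers of the distal convoluted tubule (left) and 8 of the connecting tubule and principal cell (right), with 95% intervals in the 8 kidneys (black) and 1 SE on each side in the 6 kidneys with Y-linked reads (green). All 8 black points on the left lie below 0, while 3 of the 8 green squares there lie above it.

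Of the 8 markers of the connecting tubule and principal cell, 3 were higher and 5 lower in the 8 kidneys with a median of -0.039, and 7 were higher and 1 lower in the 6 kidneys with a median of 0.192. *Aqp2*, the vasopressin-regulated water channel, had a log2 fold change of 0.62 (unadjusted p = 0.0515) in the 8 and 0.997 (SE 0.279, unadjusted p = 0.00641, FDR 0.284) in the 6 kidneys. In the 6 kidneys 3 of the 8 were higher and 1, *Klk1*, lower with an unadjusted p under 0.05, beside 11.1% of all tested genes. Those higher were *Aqp2*, *Aqp3* (0.427, unadjusted p = 0.00319) and *Avpr2* (0.471, unadjusted p = 0.0193). The summed level of this list was 3282 to 4791 CPM in controls and 2866 to 3242 CPM in mutants. Most of that sum was *Klk1*, at 2595 to 4005 CPM in controls and 2007 to 2312 CPM in mutants. Among all tested genes 4.03% had ranges that did not overlap. Over the 8 kidneys the r of this sum, and so largely of *Klk1*, was 0.88 with *Trpv6* and -0.22 with *Trpv5*. Of all 11 marker lists, the summed level with the r of largest size for *Trpv5* was that of adipocytes (0.7), followed by the proximal tubule (-0.69), and for *Atp2b4* it was that of endothelium (0.93). The part of these lists in the values of the 9 genes was not tested.

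The other marker lists held no gene at an FDR under 0.05 in the 8 kidneys. Intercalated cell markers were lower in 5 of 5 there (median -0.208) and in 3 of 5 in the 6 kidneys (median -0.119). In the 8 kidneys 2 of these 5 had an unadjusted p under 0.05, beside 6.36% of all tested genes. These were *Atp6v0d2* (-0.303, unadjusted p = 0.00856) and *Foxi1* (-0.673, unadjusted p = 0.0091). In the 6 kidneys their values were -0.191 and -0.366, neither with such a p. Proximal tubule markers were lower in 5 of 6 in the 8 kidneys (median -0.107) and in 4 of 6 in the 6 kidneys (median -0.184). Among them *Slc5a2*, the glucose cotransporter SGLT2, measured 454.5 to 555 CPM in controls and 315 to 321 CPM in mutants, with a log2 fold change of -0.665 (SE 0.0955, unadjusted p = 4.87e-05, FDR 0.0697) in the 8 and -0.658 (FDR 0.0645) in the 6 kidneys. Medians in the 8 and in the 6 kidneys were 0.052 and 0.292 for the thick ascending limb, where 1 and 3 of 6 had an unadjusted p under 0.05, -0.039 and 0.286 for podocytes, 0.215 and 0.439 for smooth muscle, -0.027 and 0.133 for endothelium and 0.24 and 0.332 for immune cells. Adipocyte markers were uneven among the controls, with summed levels of 0, 2.77, 132 and 26.5 CPM in controls 1 to 4 against 91.1 to 147 CPM in mutants, and in the 6 kidneys 4 of the 5 passed an FDR under 0.05. Of the immune cell markers, *Adgre1* had a log2 fold change of 0.756 (unadjusted p = 0.0275, FDR 0.736) in the 8 kidneys. In the 6 kidneys it was 1.193 (unadjusted p = 0.00806, FDR 0.291). The part of adipocyte and other markers in the values of the 9 genes was not tested.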

How the data were processed

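RNA-Seq of whole kidneys from 4 control and 4 SIK mutant mice was analysed from the deposited gene-level files, one per kidney. RNA was extracted with Trizol, and libraries were sequenced on a BGISEQ500 instrument. The submitters' processing notes name FastQC, STAR 2.7.2b, RSEM 1.3.0, DESeq2 and the mm10 build, without role or order. The annotation release and the use of strand are not given in the sources used here. Expected counts, as deposited, are the reads that RSEM estimated for each gene, without normalisation. TPM, as deposited, is RSEM's abundance per length on a common total in each kidney. RSEM's gene lengths, effective lengths and posterior standard deviations of the counts are other values in the deposited files.

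Gene identifiers were matched without version to GENCODE M21 (55141 of 55401). Expected counts were rounded and tested in R 4.3.3 with edgeR 4.0.16 (glmQLFit and glmQLFTest), using TMM factors, the filterByExpr filter, no covariate and Benjamini-Hochberg adjustment over all 14326 tested genes (FDR). CPM used TMM-scaled library sizes. SE and 95% intervals are on the log2 scale. An exact permutation test (two-sided, 70 assignments) was applied to the CPM of single genes. Kidneys counted as having Y-linked reads if the mean of 4 Y-linked genes was at least 1 CPM. The scripts were tested on simulated data. Alternatives were RLE and upper-quartile factors, DESeq2 1.42.0, limma-trend (limma 3.58.1) on log2(TPM + 1), no filter, an effective-length offset, the replicate number as a block, a Y-linked covariate, the 6 kidneys with Y-linked reads, and removal of each kidney. DESeq2 on the 6 kidneys and a *Slc12a3* covariate were added after seeing the data. Libraries carry no molecular identifiers, so the floor of 3 counts covers counting error only. No 2 libraries of a group were duplicates, with a chi-square per degree of freedom of 9.44 to 53.8 over 12 pairs, and since the labels do not say that samples of a group are separate litters or cultures, p-values measure the spread between these kidneys.

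The 9 genes and the gene lists were chosen with earlier results of these data known. Named genes were the 9 members, list genes at an unadjusted p under 0.05 or needed to check a list, and the 3 genes most like *Trpv5* and *Calb1*; other list genes named (*Trpv4*, *Slc8a2*, *Slc8a3*, *Calb2*, *Atp2b3*, *Gprc6a*, *S100a10*, *Kl*, *Vdr*, *Pth1r*) were named after their values were seen. Protein sequences were not used here. Sequences of promoters are from RefSeq and those of primers from the study's supplement.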

Additional observations from a re-analysis of the deposited data

How the results depend on the processing

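No gene of the 9 passed an FDR under 0.05 in any of the 19 alternatives. *Trpv5*, *Trpv6*, *S100g*, *Pvalb*, *Slc8a1*, *Atp2b1* and *Casr* kept their direction in all 19. *Trpv5* ranged from 0.289 to 0.643, with an unadjusted p under 0.05 in 12 alternatives and an FDR of 0.109 to 0.998. *Atp2b4* was -0.068 in the 8 kidneys and turned positive with limma-trend on TPM (0.124), the effective-length offset (0.065), the Y-linked covariate (0.21), the 6 kidneys (0.23 with edgeR, 0.225 with DESeq2) and the *Slc12a3* covariate (0.181). The cause was not tested.

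Leaving out single kidneys moved *Atp2b4* between -0.192 and 0.127 and *Calb1* between -0.004 and 0.243. It gave 0 to 1 genes at an FDR under 0.05 and 0 to 3 of the 9 at an unadjusted p under 0.05, with 3 without mutant 4 (7.31% of all tested genes), 2 without control 4 (5.31%), and 0 without control 1, 2 or 3 or mutant 1 or 3. The count of the 9 at an unadjusted p under 0.05, 1 with edgeR in the 8 kidneys (6.36% of all tested genes), was 0 with upper-quartile factors (6.35%), 2 with no filter (5.3%), 2 with the Y-linked covariate (12.1%), 3 in the 6 kidneys (11.1%), 4 there with DESeq2 (5.47%) and 3 with the *Slc12a3* covariate (8.42%). Genes called over the whole table, 0 with edgeR in the 8 kidneys, numbered 71 with DESeq2, 4 with limma-trend, 9 with no filter, 17 with the Y-linked covariate, 21 in the 6 kidneys and 185 there with DESeq2.

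Whether kidneys with the same replicate number in the titles were paired was not tested. Deviations of same-numbered kidneys from their group means had r of -0.137, 0.057, 0.025 and -0.253. The control means include controls 3 and 4, without Y-linked reads, while all mutants had such reads, so these r values do not settle pairing. With the replicate block edgeR called 0 genes at an FDR under 0.05. The block fit gave *Trpv5* 0.404 (unadjusted p = 0.0702) and *Pvalb* -0.594 (unadjusted p = 0.00581, FDR 0.936), and 1 of the 9 genes had an unadjusted p under 0.05. limma-trend on log2(TPM + 1) moved the median of all genes to 0.0882. Depth bears most on *Trpv6*, which had 8 to 25 counts per kidney. In 18 groups of 4 values, 0 kidneys lay far outside their group by Dixon's test, where chance gives 0.9.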
